A study of Homo sapiens with 24 samples.

Results

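The guanylate-binding proteins (GBPs) were followed here through 5 Illumina probes for 4 genes, of 47231 probes on the array: GBP1 by 2 probes (probe A, ILMN_2148785, and probe B, ILMN_1701114), GBP2 (ILMN_1774077), GBP4 (ILMN_1771385) and GBP5 (ILMN_2114568). The probes were chosen by ID, with gene names from the Illumina HT-12 annotation. The deposited table itself carries no gene symbols, so the names could not be checked against it. RNA came from SW-13, a human cell line from a carcinoma of the adrenal cortex that lacks BRG1, an ATPase of the SWI/SNF chromatin remodeler, and every group shared that defect. The 8 groups, with 3 arrays each, were siCtrl, siSUZ12, siCtrl + siBRM and siSUZ12 + siBRM cells, each left untreated or given human interferon gamma (IFNγ) for 6 hours. siCtrl and siSUZ12 were used at 50 nM, and siBRM at 75 nM on top of them. Cells given siBRM thus received more siRNA in all, and BRM knockdown and the larger amount of siRNA cannot be told apart. The design asked whether depleting SUZ12 alters the response to IFNγ, and whether BRM is needed for that.

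GBPs are large GTPases of the dynamin superfamily and are among the proteins that cells make most abundantly after IFNγ. They gather on bacteria and on the vacuoles of intracellular parasites: GBP1 coats Gram-negative bacteria and recruits GBP2 and GBP4, and GBP5 promotes inflammasome assembly. GBP genes are classical targets of IFNγ, whose response is known to run through promoter elements named GAS and ISRE. SUZ12 is a core subunit of Polycomb Repressive Complex 2 (PRC2), which places the repressive H3K27me3 mark on chromatin. BRM is the other ATPase of SWI/SNF besides BRG1.

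The 4 genes lie in 1 cluster on the minus strand of chromosome 1. In GRCh37 (GENCODE), GBP1 spans chr1:89517565-89531043, GBP2 chr1:89571815-89616139, GBP4 chr1:89646827-89664625 and GBP5 chr1:89721872-89738543. In the RefSeq gene order the family runs GBP3, GBP1, GBP2, GBP7, GBP4, GBP5, GBP6, with 0 other protein-coding genes between them. The 2 genes whose probes moved, GBP1 and GBP4, are therefore not neighbours, since GBP2 lies between them. Of the 4 genes, 2 matched the RefSeq promoter table (GRCh38.p14), GBP1 and GBP4. Their promoters are shown because only they were found there, so those of GBP2 and GBP5 could not be compared. Each window runs from 200 bases before to 10 bases after the annotated start, 5′ to 3′ on the gene's strand, GBP1 at chr1:89065199-89065408 and GBP4 at chr1:89198933-89199142. Capitals mark the match to the ISRE core.
GBP1: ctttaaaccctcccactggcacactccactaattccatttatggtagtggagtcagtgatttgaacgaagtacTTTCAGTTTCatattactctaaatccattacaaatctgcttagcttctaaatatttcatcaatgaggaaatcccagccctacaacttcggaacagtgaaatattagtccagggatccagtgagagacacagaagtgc
GBP4: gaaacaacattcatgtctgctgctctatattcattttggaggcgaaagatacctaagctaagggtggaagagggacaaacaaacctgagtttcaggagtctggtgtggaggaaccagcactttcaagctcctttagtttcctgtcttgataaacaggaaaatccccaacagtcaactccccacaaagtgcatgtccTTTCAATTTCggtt
The ISRE core was searched as GAAANNGAAA on both strands, over 300 bases per promoter. Both matches were on the strand opposite to the gene, at positions -127 to -118 in GBP1 and at -4 to 6, across the start, in GBP4 (positions run from 1 at the start base, with no 0). Of 35116 promoters of the same length, 3.57% held a match. The GAS letters TTCNNNGAA were matched in neither window, against 7.66% of all promoters. Only this strict form was searched, so the lack of a match does not show that a GAS element is absent. A match to letters is a description of the sequence and not a binding site.

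Values below are normalized signals, in arbitrary units after scaling of every array to the same mean. A probe with no target still gives signal: the level at a detection p-value of 0.5 lay between 88.7 and 102 on the 24 arrays, and the level needed for a detection p-value below 0.01 lay between 123 and 141. A signal was called detected below 0.01. Signals of different probes are not compared as amounts of mRNA, because probes differ in how strongly they report. SUZ12 and BRM themselves could not be read for want of gene names, so the labels stand unchecked on these arrays. The study refers to Western blots of SW-13 cells with the same siRNA combinations for SUZ12 knockdown, and those are not part of the array data. The 3 biological replicates per group limit the precision.

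GBP1 and GBP4 were seen strongly in 1 setting, IFNγ after SUZ12 knockdown, with or without siBRM. In siSUZ12 cells with IFNγ the signal of GBP4 was 11.4 times that of untreated siSUZ12 cells, and the signal of GBP1 7.09 times by probe A and 3.47 times by probe B. All 3 probes were undetected in those untreated cells, so these are ratios of signals to a background level and not measures of how much the mRNA rose. In siCtrl cells none of the 5 probes passed the test for induction. GBP2 and GBP5 were detected on 0 of 24 arrays. Over all probes, 16 of 47231 (0.0339%) were detected on all 6 arrays of siSUZ12 or siSUZ12 + siBRM cells with IFNγ and on 0 of the other 18, and both GBP1 probes were among these 16. This is the pattern that GBP1 itself showed, so the share describes how rare it was and tests nothing. With detection allowed on up to 3 of the other 18, 33 probes (0.0699%) had the pattern, GBP4 among them.

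GBP1, the family member that coats bacteria, was at background in siCtrl cells in either condition. Probe A read 95.4, 86.3 and 94.6 in untreated siCtrl cells and 103, 97.1 and 91.8 with IFNγ. In siSUZ12 cells it read 88.8, 81.7 and 76.9 untreated and 557, 612 and 583 with IFNγ. The siSUZ12 arrays with IFNγ stood far above all siCtrl arrays, whereas the siCtrl arrays with and without IFNγ overlapped. In siCtrl + siBRM cells probe A read 76.7, 83.5 and 88.1 untreated and 109, 96.1 and 88.6 with IFNγ. In siSUZ12 + siBRM cells it read 90.3, 92.0 and 79.7 untreated and 494, 510 and 519 with IFNγ. The pattern of the cells without siBRM was thus seen again with it, with the IFNγ arrays of siSUZ12 + siBRM cells high and the rest at background.

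Probe B of GBP1 gave the same picture at lower signal. With IFNγ it read 275, 341 and 321 in siSUZ12 cells and 250, 275 and 258 in siSUZ12 + siBRM cells. On the other 18 arrays it lay between 82.1 and 100.3 and was detected on 0 of them. Above background, probe B gave 0.389, 0.480 and 0.467 of the signal of probe A in siSUZ12 cells with IFNγ, and 0.378, 0.436 and 0.391 in siSUZ12 + siBRM cells with IFNγ. The ratio of the probes overlapped between these groups.

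GBP4, which joins the GBP1 coat on bacteria, was the brightest of the 5 probes and the only one detected on any siCtrl array. With IFNγ it read 1255, 1232 and 1291 in siSUZ12 cells and 1381, 1136 and 1202 in siSUZ12 + siBRM cells. In siCtrl cells with IFNγ it read 135, 148 and 128, and was detected on 1 of 3 arrays. In siCtrl + siBRM cells with IFNγ it read 147, 120 and 137, and was detected on 2 of 3 arrays. These 6 siCtrl arrays sat around the detection limit, far below the 6 siSUZ12 and siSUZ12 + siBRM arrays with IFNγ. Untreated cells gave 107, 131 and 90.4 with siCtrl, 98.0, 111 and 125.4 with siSUZ12, 98.3, 104 and 94.8 with siCtrl + siBRM, and 102, 102 and 119 with siSUZ12 + siBRM. GBP4 was detected on 0 of these 12 untreated arrays, and the 4 untreated groups overlapped.

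GBP2, a prenylated family member, read from 73.9 to 100.1 over all 24 arrays, and its lowest detection p-value was 0.405. GBP5, the member tied to inflammasomes, read from 76.8 to 98.9, with a lowest detection p-value of 0.338. Neither probe reached the detection limit in any group, including siSUZ12 cells with IFNγ, where GBP2 averaged 92.8 ± 1.86 and GBP5 84.3 ± 4.40 (SD, n = 3). From this signal alone, an mRNA below the detection limit and a probe that reports poorly cannot be told apart. The study also tested GBP2 by RT-PCR in SW-13 cells with siSUZ12, a measure not used here. Probe sequences were not at hand, so binding of the probes to mRNAs of related GBP genes was not tested.

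**Figure D1:**
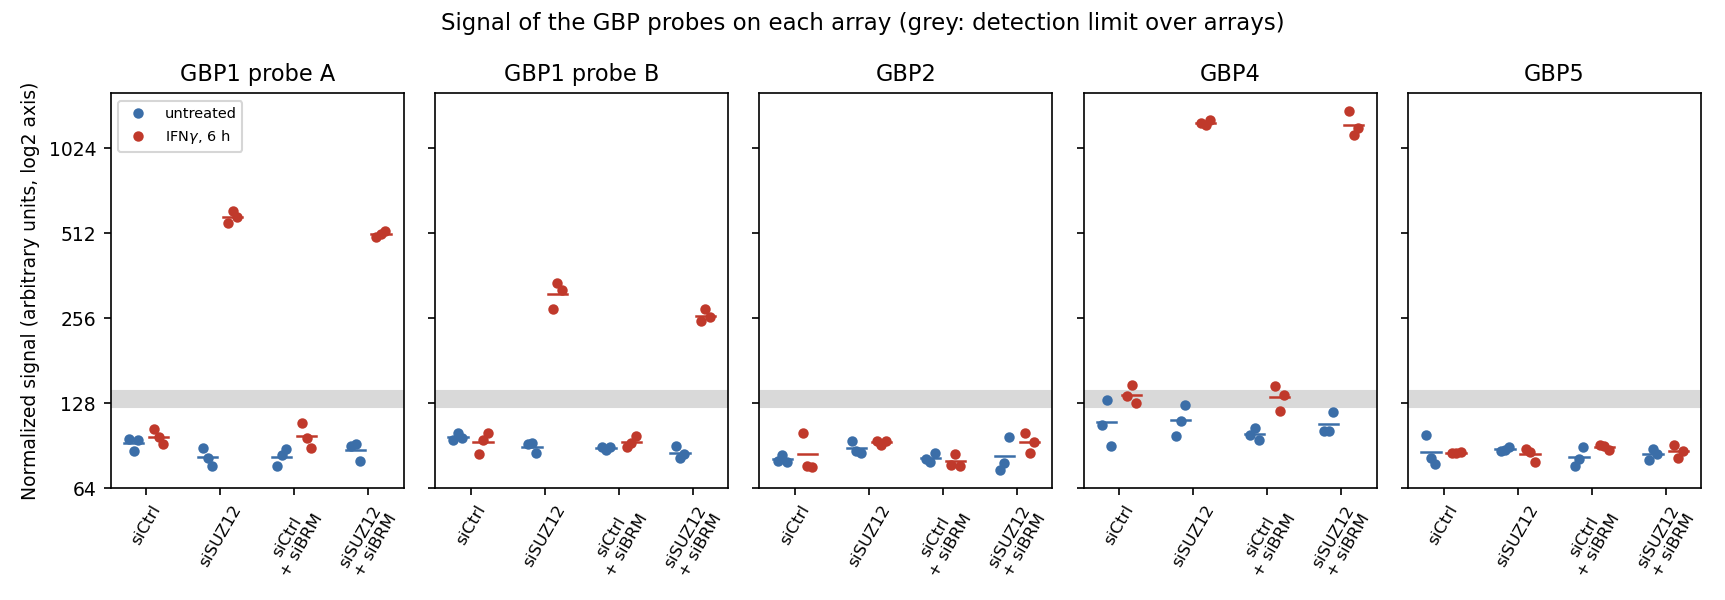
Normalized signal (log2 axis, arbitrary units) of the 5 GBP probes in the 4 siRNA backgrounds, untreated (blue) or with IFNγ for 6 h (red); points are single arrays, short lines the means of 3 arrays, and the grey band the range of the detection limit (123 to 141). The red points of siSUZ12 and siSUZ12 + siBRM cells sit between 250 and 1381 for both GBP1 probes and GBP4, while all points of GBP2 and GBP5 lie below the band.

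Ordered by level, both GBP1 probes had siSUZ12 cells with IFNγ first (584 ± 27.3 for probe A, 312 ± 33.9 for probe B) and siSUZ12 + siBRM cells with IFNγ second (508 ± 12.5 and 261 ± 12.6). The arrays of these 2 groups did not overlap, by a margin under 1 unit for probe B. From the third place on, where the highest mean was 97.9 ± 10.4 for probe A and 97.0 ± 2.86 for probe B, every neighbour in the order overlapped the next. GBP4 had the same 2 groups on top, at 1259 ± 29.5 and 1240 ± 126, and these overlapped. Next came siCtrl cells with IFNγ (137 ± 10.2) and siCtrl + siBRM cells with IFNγ (134 ± 13.7), which overlapped each other, and then the untreated groups from 99.0 to 111. For GBP2 and GBP5 every group overlapped the next.

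Induction by IFNγ was tested in each siRNA background. In siCtrl cells, where IFNγ raised 0.593% of all probes at an adjusted p-value below 0.05, it raised 0 of the 5 GBP probes, and 1 had an unadjusted p-value below 0.05. That probe was GBP4, at a log2 difference of 0.34 ± 0.11 (SE; adjusted p = 0.223). GBP1 differed by 0.08 (95% interval -0.09 to 0.26) with probe A and by -0.06 (-0.23 to 0.11) with probe B. The GBP4 value rests on the untreated siCtrl array that read 131: without it the difference was 0.48 (adjusted p = 0.0217), while over all alternatives tried adjusted p ran from 0.0217 to 0.792.

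In siSUZ12 cells IFNγ raised 3 of the 5 probes, against 1.2% of all probes, and all 3 rose more than 2-fold, against 0.275%. The log2 differences were 2.83 ± 0.09 for GBP1 probe A (SE; adjusted p = 1.66e-23), 1.80 ± 0.08 for probe B (adjusted p = 3.28e-18) and 3.51 ± 0.11 for GBP4 (adjusted p = 2.14e-23). GBP2 differed by 0.07 (-0.12 to 0.27) and GBP5 by -0.06 (-0.23 to 0.11), and neither passed the test. The median log2 difference of the 5 probes was 1.80, against -0.05 for all probes. That median is the value of GBP1 probe B, with GBP1 counted by 2 probes, and does not describe GBP2 or GBP5.

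In siCtrl + siBRM cells 1 of the 5 probes rose, against 0.987% of all probes. It was GBP4, at a log2 difference of 0.44 ± 0.11 (SE; adjusted p = 0.0257). This call rests on single arrays: without replicate 1 or replicate 3 of either siCtrl + siBRM group, adjusted p lay between 0.098 and 0.178, and over all alternatives it ran from 0.00519 to 0.4. GBP1 probe A differed by 0.24 (adjusted p = 0.263) and probe B by 0.07 (adjusted p = 0.906). In siSUZ12 + siBRM cells 3 of the 5 rose, against 1.44% of all probes. GBP4 rose by 3.52 (adjusted p = 2.28e-23), GBP1 probe A by 2.54 (adjusted p = 3.77e-22) and probe B by 1.61 (adjusted p = 7.08e-17). GBP2 differed by 0.17 (-0.03 to 0.36) and GBP5 by 0.04 (-0.13 to 0.21).

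**Figure D2:**
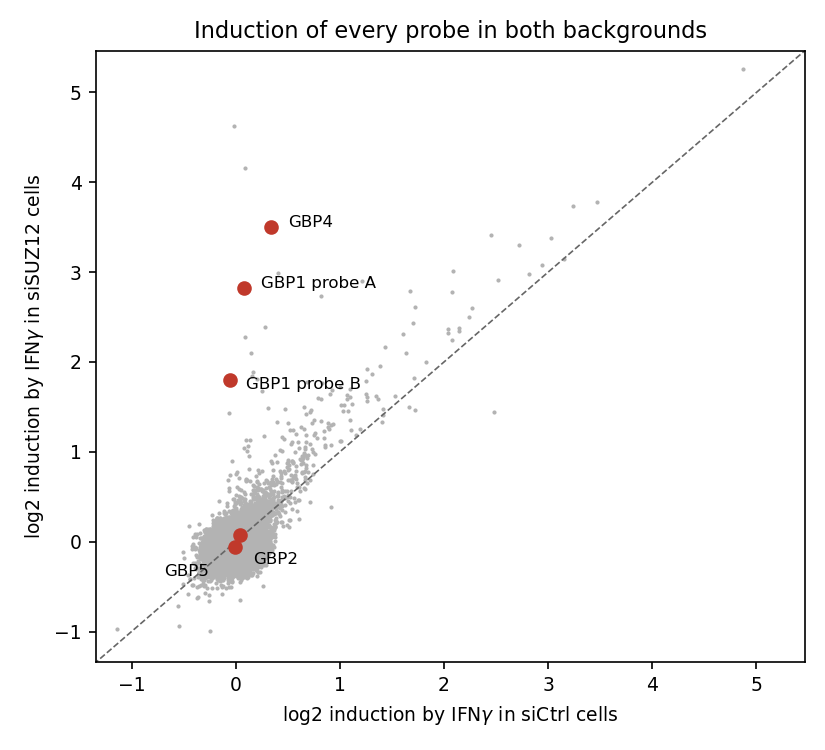
Log2 induction by IFNγ of all 47231 probes (grey) in siCtrl cells (x axis) and siSUZ12 cells (y axis), with the 5 GBP probes in red and a dashed line where both are equal. GBP4 (0.34, 3.51), GBP1 probe A (0.08, 2.83) and GBP1 probe B (-0.06, 1.80) stand far above the line near an x value of 0, while GBP2 and GBP5 lie in the mass of probes around 0.

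The difference in induction between siSUZ12 and siCtrl cells was itself tested as an interaction. It passed for 3 of the 5 probes, against 0.182% of all probes with a larger induction after siSUZ12. Induction was larger by 3.16 ± 0.15 log2 units for GBP4 (SE; adjusted p = 1.31e-16), by 2.75 ± 0.12 for GBP1 probe A (adjusted p = 1.51e-17) and by 1.86 ± 0.12 for probe B (adjusted p = 2.05e-13). In cells given siBRM the same 3 probes passed, against 0.0974% of all probes, with differences of 3.09, 2.30 and 1.54. GBP2 differed by 0.03 (-0.25 to 0.31) and GBP5 by -0.06 (-0.29 to 0.18) without siBRM.

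The effect of siSUZ12 by itself depended on IFNγ. In untreated cells siSUZ12 raised 0 of the 5 probes and lowered 0, against 8.16% of all probes raised and 5.83% lowered, shares at which 0 of 5 is not unusual, and 0 of the 5 had an unadjusted p-value below 0.05. GBP4 differed by 0.04 (-0.18 to 0.26), GBP1 probe A by -0.16 (-0.33 to 0.01) and probe B by -0.11 (-0.28 to 0.05). In untreated siBRM cells 0 of the 5 were raised as well, against 5.04% of all probes, and 0 had an unadjusted p-value below 0.05. With IFNγ, siSUZ12 raised 3 of the 5, against 7.28% of all probes. GBP4 was 9.20-fold higher than in siCtrl cells (log2 3.20; adjusted p = 4.37e-22), GBP1 6.00-fold by probe A (2.59; adjusted p = 3.29e-22) and 3.34-fold by probe B (1.74; adjusted p = 5.37e-18). The 3 siSUZ12 arrays were above the 3 siCtrl arrays for each of these probes.

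In siBRM cells with IFNγ, siSUZ12 again raised 3 of the 5, against 4.72% of all probes. GBP4 was 9.23-fold higher, GBP1 probe A 5.20-fold and probe B 2.81-fold. GBP2 had a difference of 0.22 (0.02 to 0.42) there and of 0.15 (-0.04 to 0.35) without siBRM, neither past the test (adjusted p = 0.206 and 0.406), on signals that were never detected. Without the siCtrl array with IFNγ that read 100.1, the second value was 0.28 (adjusted p = 0.0498; 0.0498 to 0.835 over all alternatives). GBP5 differed by -0.05 and by -0.02.

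These folds are ratios of signals that include background. Above background, GBP1 probe A gave 492 ± 29.5 units in siSUZ12 cells with IFNγ and 2.70 ± 5.76 in siCtrl cells with IFNγ (SD, n = 3). Probe B gave 220.03 ± 36.4 and -1.41 ± 8.76 in the same groups. For GBP4 the excess over background was 1167 ± 30.0 in siSUZ12 cells with IFNγ and 42.4 ± 12.0 in siCtrl cells with IFNγ. With a background correction from the detection p-values (neqc), the log2 effects of siSUZ12 with IFNγ were 4.12 and 3.06 for GBP1 probes A and B and 4.31 for GBP4. These are larger than the differences of the uncorrected signals, and neither set is a measure of the fold in mRNA where the siCtrl signal was not detected.

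**Figure D3:**
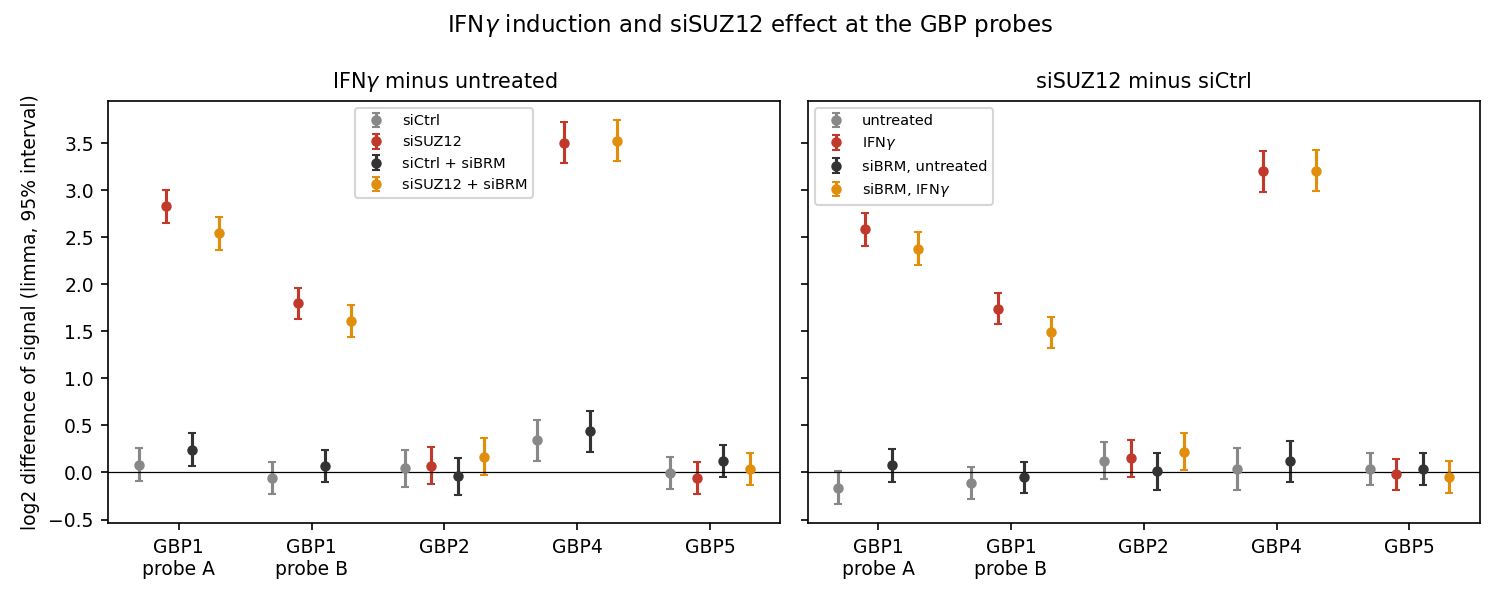
Log2 differences of signal with 95% intervals from limma for the 5 GBP probes: IFNγ minus untreated in 4 siRNA backgrounds (left) and siSUZ12 minus siCtrl in 4 conditions (right). Only the red and orange points of GBP1 and GBP4 (siSUZ12 or siSUZ12 + siBRM on the left, IFNγ on the right) lie at 1.49 or above; every other point lies between -0.16 and 0.44.

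No GBP probe passed the test for an effect of siBRM in the fit of all arrays. In siSUZ12 cells with IFNγ, where siBRM lowered 1.71% of all probes, it lowered 0 of the 5 by the adjusted test, while 2 reached an unadjusted p-value below 0.05. These were both GBP1 probes, with log2 differences of -0.20 (-0.38 to -0.03; adjusted p = 0.271) for probe A and -0.26 (-0.42 to -0.09; adjusted p = 0.0879) for probe B. GBP4 differed by -0.03 (-0.25 to 0.19; adjusted p = 0.963), so that a change of GBP4 by more than 0.25 log2 units lay outside the interval. The call for probe B depended on settings: it passed with neqc, with only detected probes tested, and without the lowest siSUZ12 array with IFNγ (difference -0.34, adjusted p = 0.0207), with adjusted p from 0.0199 to 0.5 over all alternatives.

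In siCtrl cells with IFNγ siBRM changed 0 of the 5 probes, with 3.13% of all probes changed in either direction and 0 of the 5 at an unadjusted p-value below 0.05. GBP4 differed there by -0.03 (-0.25 to 0.19). In untreated cells siBRM changed 0 of the 5 as well, both with siCtrl (3.39% of all probes) and with siSUZ12 (2.94%), and 0 of the 5 reached an unadjusted p-value below 0.05 in either. Whether siBRM altered the siSUZ12 effect under IFNγ was tested as well: 0 of the 5 passed, against 1.3% of all probes, and 1 had an unadjusted p-value below 0.05. GBP4 had a difference of 0.00 (-0.30 to 0.31; adjusted p = 0.997), GBP1 probe A of -0.21 (-0.45 to 0.04; adjusted p = 0.626) and probe B of -0.25 (-0.49 to -0.02; adjusted p = 0.454). In untreated cells siBRM altered the siSUZ12 effect at 0 of the 5, against 1.25% of all probes. Induction by IFNγ was altered by siBRM at 0 of the 5 in siCtrl cells, where 0% of all probes passed, and at 0 of the 5 in siSUZ12 cells, against 0.0275%. Of these last tests, 1 reached an unadjusted p-value below 0.05, that of GBP1 probe A in siSUZ12 cells, at -0.29 (-0.53 to -0.04; adjusted p = 1).

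Over the 8 group means of log2 signal, the GBP1 probes correlated with each other at r = 0.997, and with GBP4 at 0.998 (probe A) and 0.992 (probe B). GBP5 stood at -0.07, -0.09 and -0.03 with these. These correlations describe 8 points, of which 2 are far from the rest, and the probes share the arrays. GBP2 had r from 0.842 to 0.855 with the 3 probes, on group means that spanned only 79.6 to 92.9. By the rule set for likeness, the 2 probes closest to the average GBP profile among 18226 other detected probes were ILMN_2239754 (r = 0.990) and ILMN_2114422 (r = 0.985), for which no gene names were at hand. ILMN_2239754 averaged 179 ± 6.59 and 181 ± 7.84 in siSUZ12 and siSUZ12 + siBRM cells with IFNγ (SD, n = 3), and from 104 to 124 in the other 6 groups. ILMN_2114422 was detected on all 24 arrays and averaged 247 ± 15.4 and 247 ± 18.8 in those 2 groups, against 172 to 195 elsewhere. In both, the highest and lowest group means lay closer together than for GBP1 or GBP4.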

How the data were processed

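SW-13 RNA was hybridized to Illumina Human-HT-12 BeadChips, 24 arrays in 8 groups of 3 biological replicates taken from the sample labels. The authors deposited 1 table of non-normalized signal intensity per probe, with a detection p-value for each intensity. The sources name BeadStudio; whether background was subtracted is not given in the sources used here. Mean raw signal per array ran from 532 to 635, with 15223 to 16799 probes detected.

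Arrays were brought to a common mean signal, values under a floor of 16 (there were 0) were set to it, and signals were put on a log2 scale. A linear model with a mean per group (limma 3.58.1, R 4.3.3) was fitted once to all probes and all 24 arrays, leaving 16 residual degrees of freedom, with Benjamini-Hochberg adjustment over the 47231 probes of each of 18 comparisons. Calls were made at an adjusted p-value below 0.05. Exact permutation of 3 against 3 arrays cannot go below p = 0.1. On simulated data for the siSUZ12 effect with IFNγ, over 47231 probes, 82% of 200 probes changed by a log2 of 0.5 were recovered, and 100% at 1 and at 2. False calls were 6, 10 and 16 in the same order. The changes were set in log2 signal, so these shares do not hold for mRNA changes at probes near background. Figures used matplotlib 3.10.9 in Python 3.11.15.

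The members, lists and tests were chosen with earlier results of these data known, and the ratios above background after their values were seen. The 5 probes were named with all values, and 2 others by the likeness of their profile. Other IFNγ pathway genes, SUZ12 and BRM were not analysed here, since no gene names were given for their probes.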

Additional observations from a re-analysis of the deposited data

Results flagged for a closer look

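Of 30 tests of a difference between groups, over the 5 probes, 6 passed by the interaction term in limma. The change of IFNγ induction by siSUZ12 was 2.75 log2 units for GBP1 probe A, 1.86 for GBP1 probe B and 3.16 for GBP4. In cells given siBRM it was 2.30, 1.54 and 3.09 in the same order. In both cases the 3 siSUZ12 arrays with IFNγ lay above every siCtrl array, and the probes of GBP2 and GBP5 did not pass. The 2 probes of GBP1 report on 1 gene and are not independent of each other.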

How the results depend on the processing

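Of 19 probe results past the test, all 359 alternatives kept the direction and 353 had an adjusted p-value below 0.05. The 2-fold call was counted there by its adjusted p-value alone. With its fold limit applied, 7 alternatives fell short. Of 71 results not past the test, 1310 of 1315 alternatives stayed so, and 103 had the other sign. The alternatives were quantile normalization, neqc, a floor of 64, only probes detected on at least 3 arrays (which leaves out GBP2 and GBP5), only the groups compared, eBayes with trend and robust settings, the replicate block, a 2-fold call and leaving out replicates. The number of GBP probes past the test moved by more than 1.5 times in 3 comparisons, and for the siSUZ12 effect with IFNγ it went from 3 to 4, through GBP2, without siCtrl replicate 1 with IFNγ. For the siBRM effect in siSUZ12 cells with IFNγ it went from 0 to 1 with neqc and with only detected probes, both through GBP1 probe B (-0.37 and -0.26; adjusted p = 0.0456 and 0.0199), and from 0 to 1 over the fits that left out an array. For induction in siCtrl + siBRM cells it went from 1 to 0 with a 2-fold call, and lay between 0 and 1 when arrays or replicate numbers were left out (GBP4, adjusted p = 0.4 without replicate 1 and 0.226 without replicate 3). For induction in siCtrl cells it lay between 0 and 1 when single arrays were left out. Among detected probes fewer tests were made and the SE of GBP1 probe B was smaller (0.0751), with the same difference; the cause was not tested for any of these. With neqc, induction in siSUZ12 cells was 4.39 and 3.17 for GBP1 probes A and B and 5.07 for GBP4. With 3 arrays per group, precision is low, and background of 88.7 to 102 units limits what could be seen of GBP2, GBP5 and of GBP1 in siCtrl cells.

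The replicate numbers were not taken to pair the samples, since the labels tie them to no shared batch and not every same-number correlation was above 0.1. Such a rule does not exclude pairing. Arrays with the same number correlated from -0.0982 to 0.362 in their deviations (median 0.102), against a median of -0.0462 for different numbers. Of 24 arrays, 17 correlated best with their own number, a likeness by replicate number that the main fit leaves out. With the replicate block the number of GBP probes past the test was the same in all 18 comparisons, for example 3 for the change of induction by siSUZ12, where calls over all probes went from 94 to 98.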
